A study of Mus musculus with 4 samples.

Results

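The Hox genes are the homeobox genes of the HoxA, HoxB, HoxC and HoxD clusters. Every row of the deposited tables whose symbol was Hoxa, Hoxb, Hoxc or Hoxd followed by digits only was taken as a member, which gave 29 of 20674 listed genes. The data were single-cell transcriptomes of embryonic mouse lung on the C57BL/6 background. One sample held fluorescence-sorted fibroblasts of a single lung at the embryonic stage E16.5, which carried an αSMA-GFP reporter, Tbx4-Cre and a Rosa26-tdTomato reporter and were selected as positive for both the Tbx4 lineage and αSMA. The other 3 samples were live cells of 3 wild-type lungs at E17.5, with no reporter named. Tbx4-Cre marks cells whose ancestors expressed Tbx4, a gene of lung mesenchyme, and αSMA is the smooth muscle actin encoded by Acta2, so the sorted mesenchyme is that which both drivers reach. The sort is 1 sample and gives no test. Stage, reporter genotype, sorting and library all differ between it and the lungs, and their effects cannot be told apart. Nothing in the labels ties the 3 lungs to separate litters, so p-values do not reach beyond these samples. They measure how far class differences varied among the lungs, with each gene's variance drawn partly from other genes.

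Hox proteins are homeodomain transcription factors that give cells their position along the head-to-tail axis. Within each cluster, genes lie in the order of their paralogue groups, and low-numbered groups are used further forward in the body than high-numbered ones. In the mouse lung they are known chiefly from the mesenchyme: loss of Hoxa5 causes tracheal and lung malformation and respiratory failure at birth, and Hoxb5 takes part in airway branching. Retinoic acid, through its receptors, activates genes at the low-numbered ends of the clusters, and Hox proteins bind DNA together with TALE homeodomain partners of the Pbx, Meis and Pknox families.

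Promoter sequences are shown for 3 members that take different patterns among the lung cell classes, namely Hoxa5, the main HoxA member in matrix fibroblasts, and Hoxb4 and Hoxb8, which were highest in contractile cells. Each is the 250 bases before the gene's start, from RefSeq on build GRCm38.p6, read 5′ to 3′ on the gene's strand. Hoxa5 lies on the minus strand, at chr6:52204588-52204837, and Hoxb4 and Hoxb8 on the plus strand, at chr11:96318017-96318266 and chr11:96281655-96281904. None of the 3 stretches overlapped an annotated exon. Capitals mark matches, on either strand, to a Hox-Pbx composite motif (TGATNNAT), a Meis motif (TGACAG) or a nuclear receptor half-site as bound by retinoic acid receptors (AGGTCA).
Hoxa5: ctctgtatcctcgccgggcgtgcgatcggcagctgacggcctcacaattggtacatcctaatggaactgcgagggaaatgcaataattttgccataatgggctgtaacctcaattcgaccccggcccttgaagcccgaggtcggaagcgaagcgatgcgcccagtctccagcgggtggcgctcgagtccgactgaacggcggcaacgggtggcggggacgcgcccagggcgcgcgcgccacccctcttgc
Hoxb4: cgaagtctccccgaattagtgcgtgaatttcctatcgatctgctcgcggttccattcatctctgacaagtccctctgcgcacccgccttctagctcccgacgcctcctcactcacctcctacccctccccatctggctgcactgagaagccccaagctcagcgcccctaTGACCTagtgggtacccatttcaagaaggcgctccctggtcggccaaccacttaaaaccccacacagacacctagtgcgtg
Hoxb8: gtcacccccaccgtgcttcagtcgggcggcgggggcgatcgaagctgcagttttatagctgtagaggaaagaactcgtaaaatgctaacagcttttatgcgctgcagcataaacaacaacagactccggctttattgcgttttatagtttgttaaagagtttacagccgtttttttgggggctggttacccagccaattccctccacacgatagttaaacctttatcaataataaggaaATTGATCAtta
The Hoxb4 stretch held 1 match to AGGTCA, read on the opposite strand as the capitals above, beginning 81 bases before the start. The Hoxb8 stretch held 1 match to TGATNNAT, also on the opposite strand, beginning 11 bases before the start. No letters of the 3 motifs were found in the Hoxa5 stretch. Of 32851 promoter stretches of this length, 7.68% held TGATNNAT, 15.9% held TGACAG and 14.02% held AGGTCA, so such matches are common, and they describe letters and not bound sites.

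The tables held 3085 sorted cells and 2682, 2140 and 2657 lung cells, with a median of 12007, 7979, 8493.5 and 7201 unique molecular identifiers (UMIs, each standing for 1 captured transcript) per cell. Acta2 averaged 3073.5 CPM (UMIs scaled to 1e6 per cell) over all sorted cells against 324.0, 347.8 and 350.4 in the lungs. Tbx4 averaged 43.7 CPM against 12.4, 14.6 and 11.03, so both genes of the sort labels were higher there. These averages cover all cells, of which 2997 of 3055 were mesenchymal in the sort and 1940 of 7383 in the lungs. The part of this mix in the differences was not tested. Cells were clustered on 10331 of the genes, none of them a Hox gene, and classes carry the names of cells whose marker genes they shared. The lungs gave 1940 mesenchymal, 1863 epithelial, 1369 endothelial and 2179 immune cells. Within the mesenchyme, 1063 cells were matrix fibroblast-like (Tcf21, Wnt2), 469 were contractile myofibroblast-like cells led by Ednrb, Hhip and Tagln, 209 were led by Agtr2 and Tagln, and 199 were pericyte-like. In the sort, 1055 cells were pericyte-like, 1031 Ednrb-led contractile, 384 matrix fibroblast-like, 320 smooth muscle-like with no Ednrb among the leading genes, 181 Agtr2-led and 26 adventitial fibroblast-like, beside 30 epithelial, 21 endothelial and 7 erythroid cells. The Ednrb-led class takes every contractile cluster with Ednrb among its 10 leading genes. In the lungs it was 1 cluster, with 2 myofibroblast and 2 smooth muscle markers among those genes. In the sort it was 4 clusters, of which 1, of 131 cells, was myofibroblast-like by its marker scores, while the other 3, with 900 cells, were smooth muscle-like and held more smooth muscle than myofibroblast markers among those genes. A level is the mean CPM over the cells of a class in 1 lung. How well transcripts of different genes are captured was not measured, so shares of clusters or paralogues serve to compare classes and not to rank genes.

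All samples together gave 41486 Hox UMIs, of which 29788 were in the sort and 11698 in the lungs. HoxA members held 37.8% of them and HoxB members 61.9%, while HoxC members held 127 UMIs and HoxD members 11. The sort gave most of these UMIs, and the lungs alone had the other order. Over all cells of the lungs, HoxA genes summed to 120.6 ± 6.91 CPM and HoxB genes to 83.5 ± 6.21 CPM (SD, n = 3 lungs). HoxB genes thus made up 40.8 ± 0.983% of the summed Hox level in the lungs, against 70.3% in the sort. Members of paralogue groups 9 to 13 held 45 UMIs in all. Of the 29 members, 18 were listed in all 4 tables, 12 had under 20 UMIs and 6 had a single UMI. At least 20 CPM in 1 class or more was reached by 10 members, namely Hoxa2, Hoxa3, Hoxa5, Hoxa7, Hoxb2, Hoxb3, Hoxb4, Hoxb5, Hoxb6 and Hoxb8. Mesothelium-like cells, with 1 cell in lung 2, gave no mean of 3 lungs and are left out of these class values. Hoxa4, Hoxb1 and Hoxb7 stayed between 2.07 and 11.7 CPM in their highest lung class. Nearly all of the lung's Hox UMIs were thus those of HoxA and HoxB groups 1 to 8, and groups 2 to 5 made up most of them. Mesothelium-like cells also held HoxC genes, at 36.5 CPM in lung 1 and 56.7 CPM in lung 3, from few UMIs.

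**Figure D1:**
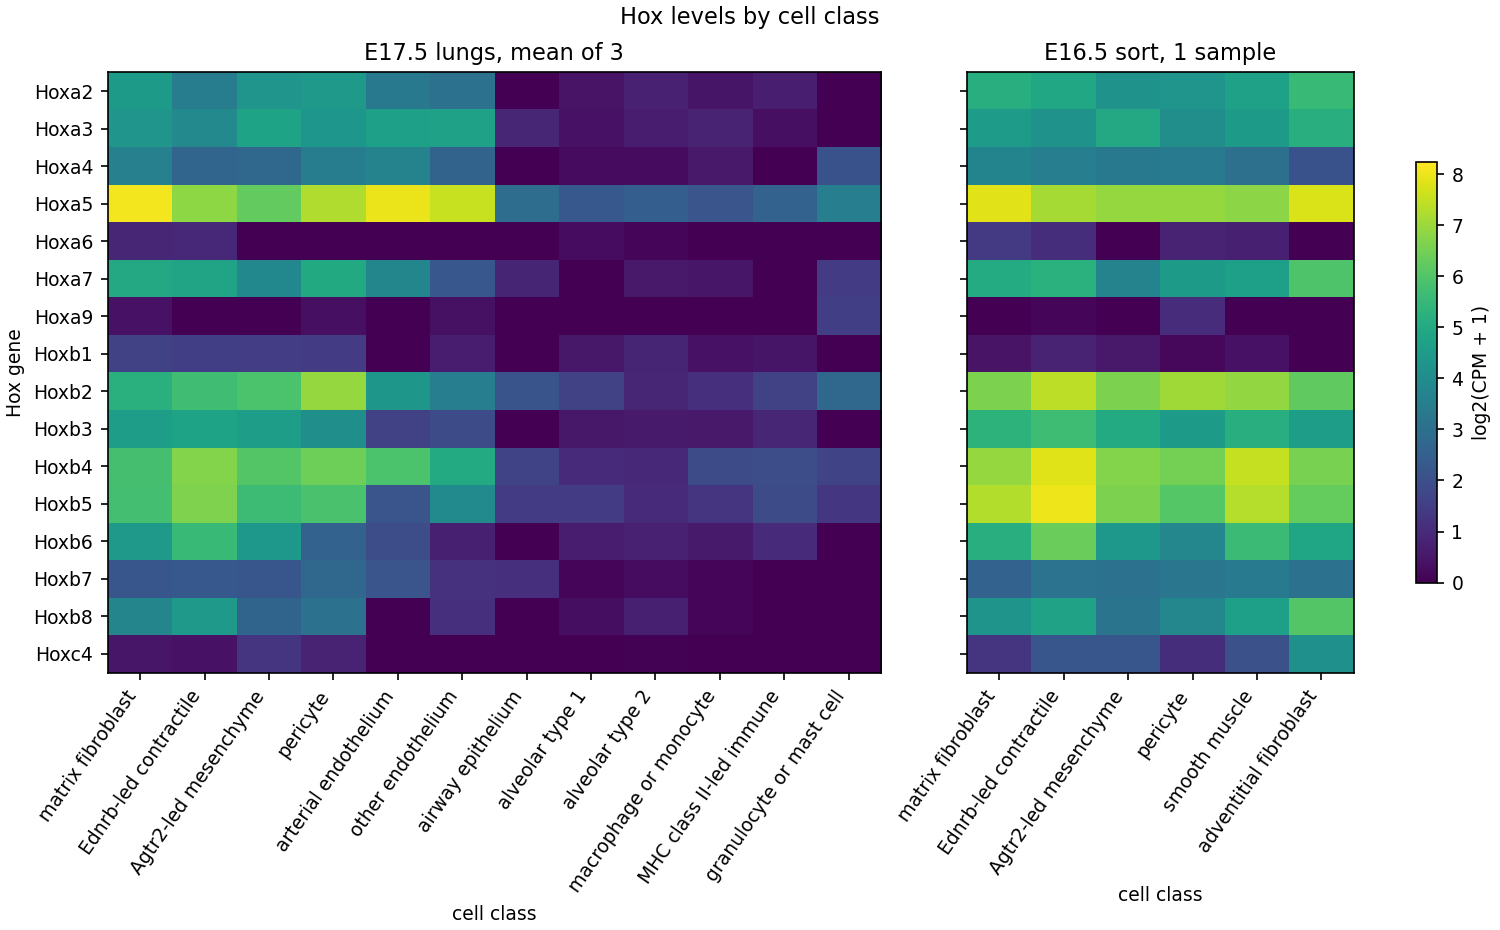
Levels of 16 Hox genes with at least 20 UMIs, as log2(CPM + 1), by cell class in the E17.5 lungs (mean of 3, left) and the E16.5 sort (1 sample, right). Hoxa5 is bright in mesenchymal and endothelial columns, most HoxB genes are brightest in mesenchymal columns, and the epithelial and immune columns are dark. Hoxb4 also shows in the endothelial columns.

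Mesenchymal cells carried the widest set. Their summed Hox level was 532.7 ± 24.3 CPM (SD, n = 3 lungs), against 298.3 ± 15.4 in endothelial, 12.7 ± 2.76 in epithelial and 13.7 ± 1.84 in immune cells. Paralogue group 5 summed to 265.9 ± 19.5 CPM in the mesenchyme, group 4 to 80.4 ± 2.41, group 2 to 69.9 ± 9.17 and group 3 to 41.8 ± 4.88. Groups 6, 7 and 8 summed to 25.7 ± 3.79, 31.7 ± 1.76 and 13.1 ± 0.919 CPM. HoxB genes made up 47.7 ± 0.792% of the mesenchymal sum but 21.8 ± 1.53% of the endothelial one.

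Hoxa5, the member needed for normal lung and airway form in mice, was at 204, 183 and 217 CPM in the mesenchyme of lungs 1, 2 and 3, and at 184, 182 and 203 CPM in their endothelium. It was at 3.79, 5.30 and 3.68 CPM in epithelium and at 3.55, 4.13 and 4.67 CPM in immune cells. Mesenchyme and endothelium overlapped, and both lay far above the other compartments in each lung. The log2 difference of Hoxa5 was 4.48 ± 0.09 (SE) between mesenchyme and epithelium (limma with Benjamini-Hochberg adjustment, adjusted p = 2.34e-23) and 0.08 ± 0.09 between mesenchyme and endothelium (limma, adjusted p = 0.445). The latter was 0.25 by edgeR's quasi-likelihood test on UMI sums, with an adjusted p of 0.000292.

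Taken as whole compartments, the mesenchyme and the endothelium were separated by HoxB genes. Hoxb5, known for a part in airway branching, was at 64.9, 61.8 and 66.5 CPM in the mesenchyme and at 13.6, 14.8 and 12.6 CPM in the endothelium. Hoxb6, a gene of trunk mesoderm and the axial skeleton, was at 28.7, 23.1 and 22.5 CPM against 0.780, 0.385 and 1.15 CPM. In every lung both genes were higher in the mesenchyme, and the groups did not overlap. Hoxb2, a hindbrain patterning gene, was at 49.8, 44.8 and 60.0 CPM against 10.3, 13.3 and 9.79 CPM. Hoxb4, a gene also used by blood stem cells, was at 75.2, 68.6 and 69.0 CPM against 32.0, 32.9 and 35.9 CPM, a smaller gap that again left the groups apart. The limma log2 differences, with Benjamini-Hochberg adjusted p, were 1.89 ± 0.11 for Hoxb5 (9.94e-14), 2.36 ± 0.11 for Hoxb6 (2.85e-16), 1.81 ± 0.13 for Hoxb2 (5.57e-12) and 0.98 ± 0.12 for Hoxb4 (8.01e-08).

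Among HoxA genes, Hoxa7, an axial patterning gene, was at 28.7, 26.8 and 27.9 CPM in mesenchyme against 4.58, 3.55 and 4.52 CPM in endothelium, and Hoxa2, a gene of the branchial arches and hindbrain, was at 18.5, 16.8 and 19.7 CPM against 8.82, 7.27 and 7.07 CPM. Both were higher in the mesenchyme of every lung. Hoxa3, which is needed for the thymus and parathyroid, ran the other way, at 16.8, 19.6 and 19.3 CPM in mesenchyme and 22.4, 25.9 and 27.1 CPM in endothelium. Its log2 difference was -0.36 ± 0.11 (limma with Benjamini-Hochberg adjustment, adjusted p = 0.00616), and with a pseudocount of 1 CPM it was -0.42 with an adjusted p of 0.0674. Reads of Hoxa3 cannot be told from those of overlapping antisense genes, since the strand of counting is not given, and the same holds for Hoxa7, Hoxb2, Hoxb3 and Hoxb5. Hoxa2 and Hoxa3 also share exons with a same-strand gene model, whereas Hoxa5, Hoxb4, Hoxb6 and Hoxb8 overlap none.

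**Figure D2:**
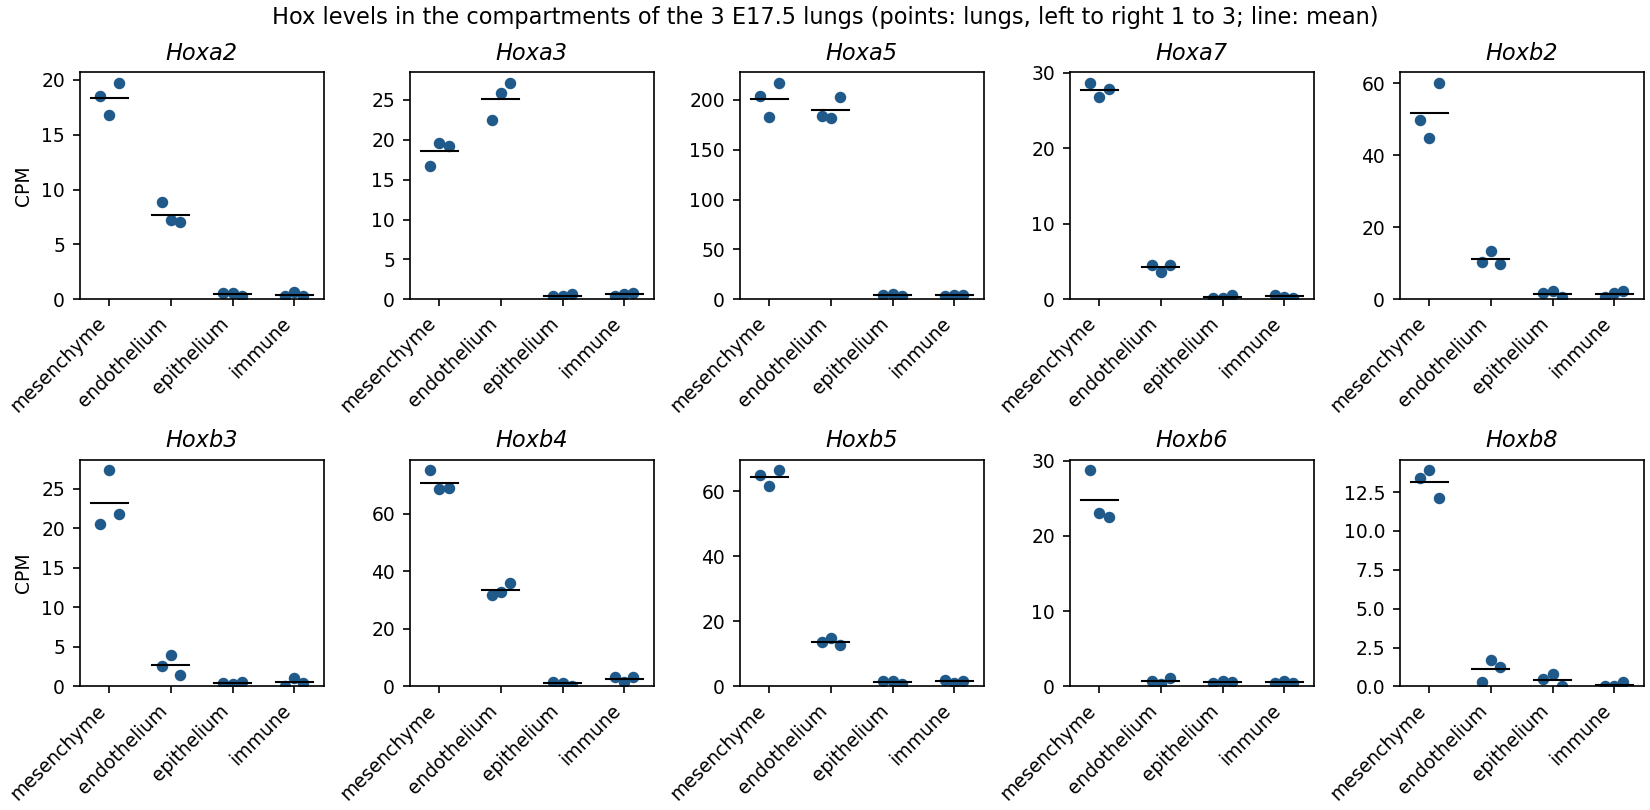
Levels in CPM of the 10 Hox genes that reached a mean of 20 CPM over 3 lungs in a class, in the 4 compartments of each E17.5 lung (points) with the mean of 3 lungs (line). Hoxa5 is close in endothelium and mesenchyme, Hoxa3 is higher in endothelium, and the other genes fall from mesenchyme to endothelium.

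Counts over the members are descriptions, because the 11 of 29 that passed the filter of a mean of 2 CPM did so largely through the mesenchyme. Between mesenchyme and epithelium all 11 were called higher and 0 lower (limma, adjusted p under 0.05), where 40.4% of the 6093 genes tested were called higher and 23.8% lower, and their median log2 difference was 2.41 against 0.12 over all genes. Between mesenchyme and immune cells 11 were higher and 0 lower, where 51.3% of all genes were called higher and 26.3% lower, with medians of 2.42 and 0.26. Between mesenchyme and endothelium 9 were higher and 1, Hoxa3, was lower, where 29.6% of all genes were called higher and 34.4% lower, with medians of 1.58 and -0.03. With median-of-ratios scaling, which moved those medians of all genes to between -0.004 and 0.020, the counts of members called stayed at 11, 11 and 10, and the shares of all genes called higher became 31.4% against epithelium and 38.2% against immune cells.

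Endothelial cells carried a narrower, Hoxa5-led set. Against epithelium, 9 of the 11 members were called higher in endothelium and 0 lower, where 45.2% of all genes were called higher and 24.6% lower, with median log2 differences of 1.21 for members and 0.16 for all genes. Against immune cells, 10 were called higher and 0 lower, where 54.0% of all genes were called higher and 21.5% lower, with medians of 1.23 and 0.30. With median-of-ratios scaling the shares of all genes called higher fell to 31.9% and 34.3%, and 9 members were called in each. Hoxb6 was called in neither comparison. Hoxb8, a gene known from blood progenitors, was called only against immune cells, at 0.29, 1.73 and 1.26 CPM against 0, 0 and 0.272 CPM, a log2 difference of 0.25 ± 0.11 (limma, adjusted p = 0.0333), and the call was lost without lung 2 (0.16, adjusted p = 0.266), without lung 3 (0.25, 0.0899), with a pseudocount of 10 CPM (0.13, 0.0718) and with median-of-ratios scaling (0.21, 0.0689). The 8 mesenchymal markers summed to between 240 and 297 CPM in the endothelium of the 3 lungs and to between 11999 and 12841 CPM in the mesenchyme, while Hoxa5 was near equal in both.

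The 4 endothelial clusters differed in Hoxa5. It was at 249.1 CPM (95% Poisson interval 210.4 to 293.0, counting error only) in the 75 arterial cells, at 226.9 (210.6 to 244.2) in a cluster led by Sox18, at 189.5 (173.8 to 206.3) in one led by Clec1a, Scn7a and Aplnr, and at 135.3 (123.3 to 148.1) in one led by Ccl21a. The arterial and Sox18-led intervals overlapped, and the Ccl21a-led interval lay below the others. Arterial cells also held Hoxb4 at 62.8, 51.9 and 60.3 CPM lung by lung, but Hoxb5 at 0, 0 and 10.47 CPM. Their Hoxb4 values overlapped those of matrix fibroblasts, at 50.7, 59.0 and 55.6 CPM. HoxB genes made up 23.3 ± 7.50% of the arterial Hox sum. These are descriptions of pooled cells and carry no test.

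Epithelial and immune cells held Hox UMIs at a like low level. Hoxa5 gave the highest value in both, at 4.26 ± 0.905 CPM in epithelium and 4.12 ± 0.564 CPM in immune cells, followed by Hoxb2 at 1.54 ± 0.787 CPM in epithelium and by Hoxb4 at 2.71 ± 1.00 CPM in immune cells. Between these compartments 0 of 11 members were called higher and 1 lower, where 45.4% of all genes were called higher and 29.7% lower (37.6% and 37.1% with median-of-ratios scaling). The one was Hoxb4, at 1.71, 1.36 and 0.228 CPM in epithelium against 3.27, 1.55 and 3.30 CPM in immune cells, and the groups overlapped. Its log2 difference was -0.34 ± 0.12 (limma with Benjamini-Hochberg adjustment, adjusted p = 0.0140), and -0.17 with an adjusted p of 0.284 without lung 3. Between alveolar type 1-like and alveolar type 2-like cells only Hoxa5 passed the filter, with a log2 difference of -0.10 ± 0.17 (limma, adjusted p = 0.701), where 31.0% of 5645 genes were called in either direction. At these levels free RNA from mesenchyme cannot be told from expression, and no Hox gene is read as expressed by epithelial or immune cells here.

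Cell by cell, with every cell thinned to 1000 UMIs, 39.2 ± 1.89% of mesenchymal cells had at least 1 Hox UMI, against 24.6 ± 1.63% of endothelial, 1.11 ± 0.627% of epithelial and 1.20 ± 0.302% of immune cells. Median depths before thinning ran from 6796.5 to 8382.5 UMIs per lung in mesenchyme, from 6204.5 to 7543 in endothelium, from 9251 to 10807.5 in epithelium and from 6767.5 to 7865.5 in immune cells. A thinned mesenchymal cell held 0.501 ± 0.0198 Hox genes with a UMI, and an endothelial cell 0.271 ± 0.0130. HoxA UMIs were found in 23.6 ± 1.05% and HoxB UMIs in 21.2 ± 1.02% of mesenchymal cells, and both in 5.65 ± 0.473%. In endothelium the shares were 20.7 ± 1.85% for HoxA and 5.24 ± 1.21% for HoxB. Without thinning, a mesenchymal cell held 2.56 Hox genes and an epithelial cell 0.138.

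Within the lung mesenchyme the classes differed in which cluster led. HoxA genes summed to 358.6 ± 27.3 CPM in matrix fibroblasts, 238.8 ± 13.8 in pericytes, 172.2 ± 21.9 in Ednrb-led contractile cells and 141.2 ± 29.4 in Agtr2-led cells. HoxB genes summed to 207.1 ± 18.0, 299.3 ± 11.3, 351.4 ± 69.4 and 226.4 ± 39.2 CPM in the same order. The HoxB share was therefore 36.6 ± 2.20% in matrix fibroblasts, 55.6 ± 0.934% in pericytes, 61.3 ± 3.08% in Agtr2-led cells and 66.9 ± 1.56% in Ednrb-led cells, and the lungs of matrix fibroblasts did not overlap those of any other class. Total Hox levels were close in matrix fibroblasts (566.4 ± 37.7 CPM), pericytes (538.9 ± 24.0) and Ednrb-led cells (524.2 ± 90.7), and lower in Agtr2-led cells (370.2 ± 64.3).

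**Figure D3:**
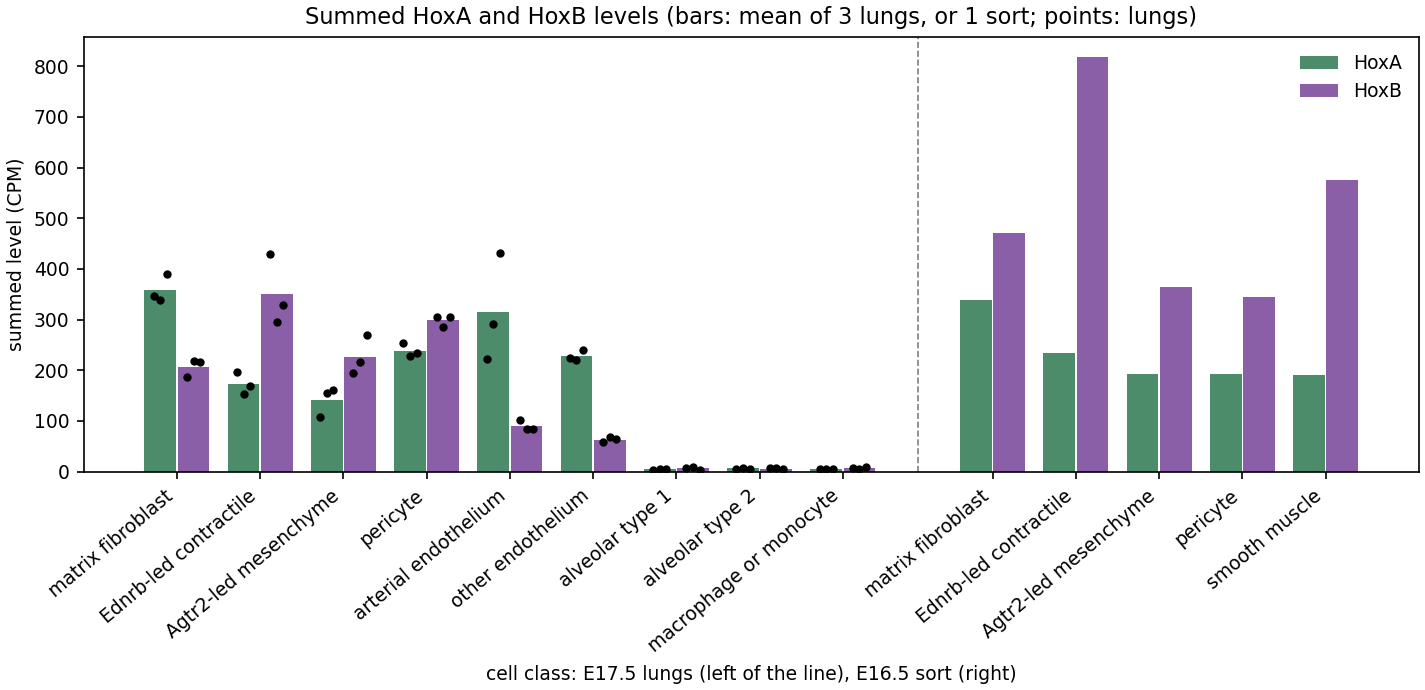
Summed HoxA and HoxB levels in CPM by class. Bars give the mean of 3 E17.5 lungs with each lung as a point (left of the dashed line) or the 1 E16.5 sort (right). HoxA exceeds HoxB in matrix fibroblasts and endothelium of the lungs, and HoxB exceeds HoxA in the other mesenchymal classes and in all sort classes drawn.

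Hoxa5 set matrix fibroblasts apart. It was at 264, 254 and 304 CPM in matrix fibroblasts, 161, 145 and 152 CPM in pericytes, 134, 95.3 and 112 CPM in Ednrb-led cells and 61.0, 74.3 and 89.2 CPM in Agtr2-led cells. Its order was the same in each lung, and no neighbouring classes overlapped. Against matrix fibroblasts the limma log2 differences were -0.82 ± 0.13 in pericytes (adjusted p = 2.87e-05), -1.24 ± 0.13 in Ednrb-led cells (adjusted p = 7.29e-08) and -1.82 ± 0.13 in Agtr2-led cells (adjusted p = 1.07e-10). Ednrb-led cells exceeded Agtr2-led cells by 0.58 ± 0.13 (limma, adjusted p = 0.00208), but without lung 1 the difference was 0.33 with an adjusted p of 0.144. The 2 matrix fibroblast clusters differed too, at 281.4 CPM (269.2 to 294.0) in the larger and 209.5 (184.8 to 236.6) in the smaller, which was led by Nexn and Pth1r.

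The other HoxA genes varied less. Hoxa2 was at 21.3, 20.2 and 22.8 CPM in matrix fibroblasts and at 11.2, 8.78 and 10.2 CPM in Ednrb-led cells, which did not overlap. Its log2 difference was -0.81 ± 0.25 (limma with Benjamini-Hochberg adjustment, adjusted p = 0.0193), and the call was lost without lung 1 (-0.87, adjusted p = 0.0604), lung 2 (-0.78, 0.111) or lung 3 (-0.78, 0.108). Hoxa7 was lowest in Agtr2-led cells, at 12.1, 20.4 and 7.90 CPM against 30.8, 27.6 and 32.6 CPM in matrix fibroblasts. That difference was -0.99 ± 0.24 (limma, adjusted p = 0.00376), and -0.95 (adjusted p = 0.0551) without lung 1 and -0.71 (adjusted p = 0.103) without lung 3. Hoxa3 was called in no comparison with matrix fibroblasts, and stood at 13.8 ± 1.57 CPM in Ednrb-led and 26.5 ± 10.6 CPM in Agtr2-led cells (limma, adjusted p = 0.0625, log2 difference -0.68). The latter difference was called by edgeR on UMI sums (-1.14, adjusted p = 0.00569), with CPM of summed UMIs (-0.79, 0.0287), with median-of-ratios scaling (-0.74, 0.0433) and without lung 1 (-1.05, 0.0193).

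Hoxb4, Hoxb5, Hoxb6 and Hoxb8 were highest in the Ednrb-led contractile cells. Hoxb4 was at 128, 91.7 and 92.1 CPM there and at 50.7, 59.0 and 55.6 CPM in matrix fibroblasts, and Hoxb5 was at 108, 91.8 and 95.8 CPM against 52.1, 53.9 and 54.0 CPM. Neither gene's groups overlapped. The log2 differences were 0.85 ± 0.17 for Hoxb4 (limma with Benjamini-Hochberg adjustment, adjusted p = 0.000438) and 0.83 ± 0.17 for Hoxb5 (adjusted p = 0.000485). Hoxb6 was at 66.1, 38.6 and 31.2 CPM against 17.7, 21.7 and 21.4 CPM, with lung 1 well above the others, and its difference of 0.94 ± 0.30 (limma, adjusted p = 0.0271) was not called without lung 1 (0.58, 0.377), without lung 2 (1.05, 0.0543), with a pseudocount of 1 CPM (1.06, 0.1004), with no filter on low values (0.94, 0.117) or at clustering resolution 2 (0.94, 0.0642). Hoxb8 was at 24.6, 18.8 and 17.9 CPM against 11.1, 14.4 and 12.0 CPM, which did not overlap but missed the threshold (0.53 ± 0.28, limma, adjusted p = 0.203), and edgeR on UMI sums called it (0.60, adjusted p = 0.0439).

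Against Agtr2-led cells, these HoxB genes, Hoxa7 and Hoxa5 were called higher in Ednrb-led cells. The log2 differences were 0.97 ± 0.17 for Hoxb5 (limma with Benjamini-Hochberg adjustment, adjusted p = 8.45e-05), 1.299 ± 0.28 for Hoxb8 (adjusted p = 0.00105), 0.66 ± 0.17 for Hoxb4 (0.00519), 0.97 ± 0.30 for Hoxb6 (0.0226) and 0.85 ± 0.24 for Hoxa7 (0.0112). Hoxb8 was at 5.52, 4.90 and 5.38 CPM in the Agtr2-led cells, below every lung of the Ednrb-led cells. Without lung 1 the calls of Hoxb4 (0.57, adjusted p = 0.0774), Hoxb6 (0.69, 0.262) and Hoxa7 (0.79, 0.107) were lost. Without lung 2 those of Hoxb4 (0.55, 0.0643) and Hoxb6 (0.88, 0.114) were lost, and without lung 3 that of Hoxa7 (0.67, 0.115). Hoxb6 was also not called with a pseudocount of 1 CPM (1.10, 0.0875) or with no filter (0.97, 0.104), and Hoxa7 not by edgeR (0.85, 0.0527).

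In the E17.5 lungs, Hoxb2 was highest in pericytes among the mesenchymal classes. It was at 133, 97.9 and 134 CPM in pericytes, 32.4, 37.0 and 40.6 CPM in matrix fibroblasts, 36.9, 64.5 and 75.8 CPM in Agtr2-led cells and 62.7, 22.6 and 67.8 CPM in Ednrb-led cells. Every pericyte value lay above every value of the other classes. Pericytes exceeded matrix fibroblasts by 1.59 ± 0.24 on the log2 scale (limma with Benjamini-Hochberg adjustment, adjusted p = 1.08e-05). Hoxb3os, the antisense gene that overlaps Hoxb2 and Hoxb3, was also higher in pericytes, at 27.0, 16.8 and 45.7 CPM against 5.61, 3.04 and 7.96 CPM (1.67 ± 0.30, limma, adjusted p = 0.000106), while Hoxb3 was at 16.1 ± 3.06 against 23.5 ± 6.43 CPM. The 8 endothelial markers summed to between 235 and 273 CPM in pericytes and between 102 and 168 CPM in matrix fibroblasts, and their part in these differences was not tested. In Ednrb-led cells Hoxb2 was not called against matrix fibroblasts (0.31 ± 0.24, limma, adjusted p = 0.441), and without lung 2, its lowest lung, it was (0.77, adjusted p = 0.0264).

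Hoxb6 was lower in pericytes, at 4.14, 9.77 and 1.13 CPM, below all lungs of matrix fibroblasts (-1.43 ± 0.30, limma with Benjamini-Hochberg adjustment, adjusted p = 0.000758). Hoxb8 was at 4.47, 11.9 and 5.66 CPM in pericytes, which overlapped matrix fibroblasts and was not called (-0.55 ± 0.28, limma, adjusted p = 0.172). Hoxb4 was somewhat higher in pericytes, at 86.5, 89.0 and 75.4 CPM (0.56 ± 0.17, limma, adjusted p = 0.0148). That call was lost without lung 1 (0.48, adjusted p = 0.129), without lung 2 (0.56, 0.0509) and with no filter on low values (0.56, 0.0535).

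**Figure D4:**
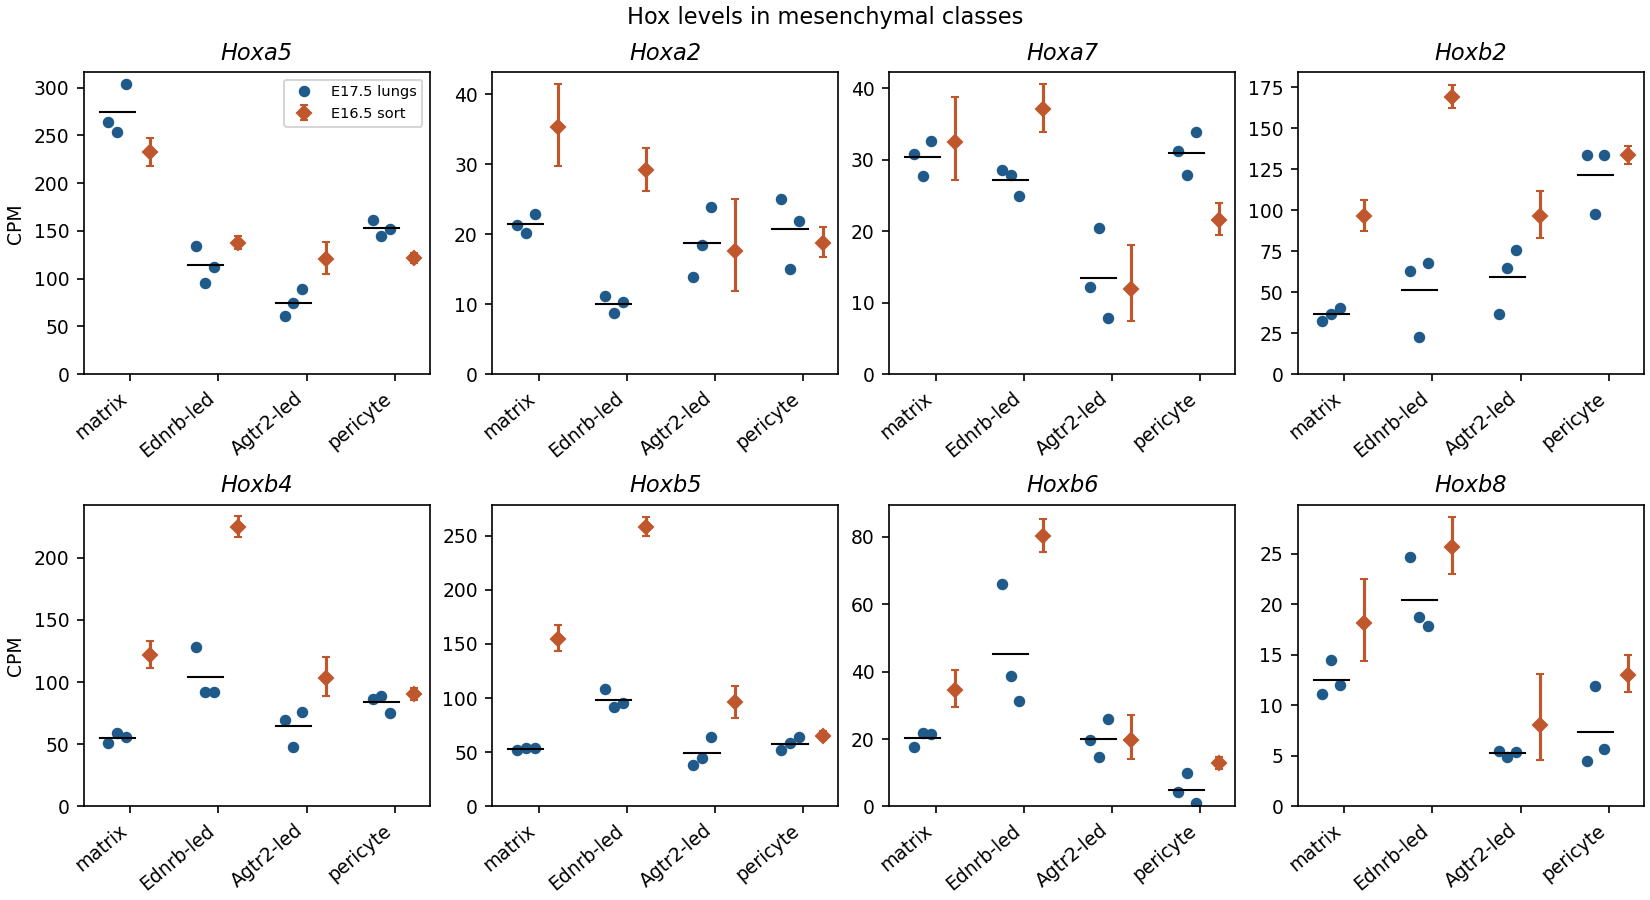
Levels in CPM of 8 Hox genes in 4 mesenchymal classes, with each E17.5 lung as a point, their mean as a line, and the E16.5 sort as a diamond with its 95% Poisson interval (counting error only). Hoxa5 peaks in matrix fibroblasts, Hoxb2 in lung pericytes, and Hoxb4, Hoxb5 and Hoxb6 in Ednrb-led cells of both stages.

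Of the 13 members that passed the filter in the mesenchymal classes, 3 were called higher and 2 lower in Ednrb-led cells than in matrix fibroblasts, where 14.5% of 5853 genes were called higher and 8.71% lower (11.4% and 10.7% with median-of-ratios scaling), and the members' median log2 difference was 0.03 against 0.08 over all genes. In Agtr2-led cells 0 were higher and 2 lower, where 10.5% of all genes were called higher and 8.59% lower. In pericytes 2 were higher and 2 lower, where 13.7% were higher and 11.3% lower. Between Ednrb-led and Agtr2-led cells 6 were higher and 0 lower, where 13.0% were higher and 9.23% lower, with medians of 0.23 for members and 0.06 for all genes. With median-of-ratios scaling, 3 members (Hoxb8 joining) were lower in Agtr2-led cells than in matrix fibroblasts, and 1, Hoxa3, was lower in Ednrb-led than in Agtr2-led cells. In the first and the third comparison members were called in both directions.

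The Agtr2-led cluster split at a finer clustering resolution into 140 smooth muscle-like cells led by Cxcl13, Tagln and Map3k7cl and 69 cells led by Agtr2. Hoxb5 was at 29.8, 26.5 and 43.4 CPM in the former and 56.3, 77.9 and 108 CPM in the latter, which did not overlap. The smooth muscle-like cells, put against matrix fibroblasts, had a log2 difference in Hoxb5 of -0.64 (limma with Benjamini-Hochberg adjustment, adjusted p = 0.0108), where the whole cluster had -0.14 (adjusted p = 0.645). Hoxb8 was at 7.97, 7.67 and 7.91 CPM in the smooth muscle-like cells and had no UMI in the Agtr2-led ones. With only 69 such cells, the lack of a UMI does not show that Hoxb8 was absent. Hoxa5 overlapped between them, at 54.5, 89.1 and 70.4 CPM and 75.5, 48.0 and 129 CPM.

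The E16.5 sort carried more HoxB. Its mesenchyme summed to 779.5 Hox CPM with a HoxB share of 70.5%, and its Ednrb-led contractile cells to 1056 CPM with a HoxB share of 77.4%. In classes of the same name the HoxB share was 57.9% in sorted matrix fibroblasts, 64.1% in pericytes and 64.9% in Agtr2-led cells, each above all 3 lungs of the same class. For Agtr2-led cells the margin was narrow, with lung 1 at 63.6%. With the 4 samples clustered together, the sort's share was 56.5% in Agtr2-led cells, 64.3% in pericytes and 76.0% in Ednrb-led cells. The Agtr2-led share then lay below the 63.6%, 57.8% and 62.3% of the lungs clustered without the sort. Those of pericytes and Ednrb-led cells stayed above all 3 lungs, and no share could be had for matrix fibroblasts. Stage, sorting, genotype and library cannot be told apart as sources, and the intervals below cover counting error only.

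In matrix fibroblasts Hoxb5 was at 154.8 CPM in the sort (143.2 to 167.1) and at 52.1, 53.9 and 54.0 CPM in the lungs. Hoxb2 was at 96.5 CPM (87.5 to 106.1) against 32.4, 37.0 and 40.6 CPM, and Hoxb4 at 121.7 CPM (111.4 to 132.7) against 50.7, 59.0 and 55.6 CPM. All 3 genes were over 2 times the highest lung, whereas Hoxa5 was at 232.4 CPM (218.1 to 247.4), under the lowest lung at 253.6. In Ednrb-led cells Hoxb5 was at 258.2 CPM (249.5 to 267.3) against 108, 91.8 and 95.8 CPM, and Hoxb2 at 169.2 CPM (162.2 to 176.4) against 62.7, 22.6 and 67.8 CPM. Hoxa2 was at 29.2 CPM (26.2 to 32.3) against 11.2, 8.78 and 10.2 CPM, but did not reach the mean of 20 CPM set for the count. Hoxb4 there was at 225.0 CPM (216.8 to 233.5) against 128, 91.7 and 92.1 CPM, and Hoxb6 at 80.3 CPM (75.4 to 85.3) against 66.1, 38.6 and 31.2 CPM.

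Because most of the sorted Ednrb-led cells lay in smooth muscle-like clusters, the 131 myofibroblast-like cells were also set against the lungs alone. They held Hoxb5 at 258.9 CPM (234.2 to 285.4) and Hoxb2 at 188.2 CPM (167.4 to 210.8), both again over 2 times the highest lung. Their Hoxb6, at 67.5 CPM (55.5 to 81.4), had lung 1 within its interval. Hoxb8 was at 15.4 CPM (9.90 to 23.0) in these cells and at 25.7 CPM (23.0 to 28.6) in the whole class, against 24.6, 18.8 and 17.9 CPM, and each interval held at least 1 lung.

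In pericytes the summed Hox level of the sort lay among those of the lungs. Hox genes together reached 538.7 CPM in sorted pericytes and 538.9 ± 24.0 CPM in those of the lungs. Hoxb2 was at 133.6 CPM (128.0 to 139.3), level with lungs 1 and 3. It was higher in sorted Ednrb-led cells, at 169.2 CPM (162.2 to 176.4). Hoxb4 in sorted pericytes was at 90.2 CPM (85.5 to 95.03). Hoxa5 was at 121.3 CPM (115.9 to 126.9) against 161, 145 and 152 CPM, and Hoxa7 at 21.6 CPM (19.5 to 23.9) against 31.2, 27.8 and 33.9 CPM, both below every lung. Hoxb6 was at 12.9 CPM (11.2 to 14.8) against 4.14, 9.77 and 1.13 CPM, and Hoxb8 at 13.04 CPM (11.3 to 14.98) against 4.47, 11.9 and 5.66 CPM, both above every lung, although lung 2 lay within the interval of Hoxb8.

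Counting genes whose mean was 20 CPM or more and that stood at 2 times the highest lung or more, or at 1/2 of the lowest or less, gave 3 higher and 0 lower of 8 members in matrix fibroblasts, where 2.11% of 2793 genes were higher and 4.94% lower. Ednrb-led cells gave 2 higher and 0 lower of 8 members, where 1.06% of 2915 genes were higher and 4.63% lower. The 131 myofibroblast-like cells alone also gave 2 higher, Hoxb5 and Hoxb2, and 0 lower, of 7 members, where 1.06% of 2931 genes were higher and 4.91% lower. In pericytes 0 of 6 members passed in either direction, where 0.604% of 2815 genes were higher and 4.12% lower. In Agtr2-led cells 0 of 7 passed in either direction, where 0.282% of 2840 genes were higher and 4.05% lower. These rules describe 1 sorted sample beside 3 lungs and are no test. Where sort and lungs were clustered together, 245 of the 384 sorted matrix fibroblasts fell into the Agtr2-led class, 105 into the Ednrb-led class and 9 into the matrix fibroblast class, so the matrix fibroblast values rest on clustering the sort alone. Of the 1055 sorted pericytes, 1019 kept their class, and of the 1031 Ednrb-led cells 916 did.

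Other classes of the sort are given here on their own. At clustering resolution 1, smooth muscle-like and adventitial fibroblast-like classes were found only in the sort. The lungs also held endothelial cells and, at resolution 2, the 140 smooth muscle-like cells described above. The smooth muscle-like cells with no Ednrb among the leading genes were 2 clusters. One, of 164 cells led by Map3k7cl, Tagln and Heyl, held Hoxa5 at 55.4 CPM (45.9 to 66.3), Hoxb4 at 90.9 (78.6 to 104.5) and Hoxb5 at 47.7 (39.2 to 57.6). The other, of 156 cells led by Actc1, Actg2 and Cnn1, held them at 170.4 (149.0 to 194.0), 276.2 (249.2 to 305.3) and 276.2 (249.1 to 305.3). Hoxb2 was at 110.1 (96.4 to 125.2) and 126.7 (108.7 to 146.8), with overlapping intervals. The 26 adventitial fibroblast-like cells held Hoxa5 at 215.9 CPM (163.5 to 279.7) and Hoxb8 at 64.9 (37.8 to 103.9). Their name rests on Dcn and Lum among the 10 leading genes, and is uncertain. Their marker score was higher for matrix fibroblasts, at 3.43, than for adventitial fibroblasts, at 2.30. With the 4 samples clustered together, 23 of them fell into the Agtr2-led class and 3 into the mesothelium-like class. The 21 endothelial cells of the sort held Hoxa5 at 206.4 CPM (165.5 to 254.3), with a HoxB share of 24.98%.

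The tables also held 5 non-coding genes of the clusters. Their reads cannot be told from those of any gene that overlaps them on the other strand. Hotairm1, a non-coding gene of the HoxA cluster, was at 82.6, 85.5 and 62.2 CPM in mesenchyme and 51.0, 55.8 and 43.1 CPM in endothelium (0.57 ± 0.11, limma with Benjamini-Hochberg adjustment, adjusted p = 4.11e-05), with arterial cells at 155.4 ± 42.3 CPM. Hoxaas3, antisense in HoxA, was higher in endothelium, at 26.7, 30.1 and 27.6 CPM against 13.7, 17.7 and 13.99 CPM in mesenchyme (-0.72 ± 0.11, limma, adjusted p = 2.82e-06), and it overlaps both Hoxa3, which was likewise higher in endothelium, and Hoxa7, which was higher in mesenchyme. Hoxb5os was at 25.4, 21.1 and 20.1 CPM in mesenchyme against 1.44, 0.9497 and 1.48 CPM in endothelium (2.11 ± 0.11, limma, adjusted p = 2.83e-15). Hoxd3os1 had at most 2 UMIs in any lung.

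Of 34 listed cofactors and regulators of Hox genes, 33 were in the tables and 28 passed the filter across compartments. Between mesenchyme and epithelium 17 were higher and 2 lower, where 40.4% of all genes were called higher and 23.8% lower, with a median log2 difference of 0.38 against 0.12 over all genes. Meis1 led, at 107.0 CPM in mesenchyme, 28.7 in endothelium and 2.66 in epithelium (3.87 ± 0.10 against epithelium, limma with Benjamini-Hochberg adjustment, adjusted p = 3.36e-21). Between mesenchyme and endothelium 10 were higher and 13 lower, where 29.6% of all genes were called higher and 34.4% lower, with medians of -0.17 for the listed genes and -0.03 for all. Meis2 was at 45.3 against 199.7 CPM (-2.02 ± 0.14, limma, adjusted p = 1.03e-12) and Cyp26b1, which breaks down retinoic acid, at 2.04 against 22.5 CPM (-1.98 ± 0.13, limma, adjusted p = 2.74e-13).

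Among the mesenchymal classes 27 partners passed the filter. In Ednrb-led cells against matrix fibroblasts 3 were higher and 3 lower, where 14.5% of all genes were called higher and 8.71% lower, a count near that background. The largest differences were those of Rarb, a retinoic acid receptor, at 17.3 against 1.72 CPM (1.73 ± 0.30, limma with Benjamini-Hochberg adjustment, adjusted p = 7.66e-05), Pbx3 at 46.8 against 17.47 CPM (1.24 ± 0.28, adjusted p = 0.00179) and Pknox2 at 3.60 against 17.1 CPM (-1.37 ± 0.28, adjusted p = 0.000652). In pericytes 1 was higher and 5 lower, where 13.7% of all genes were called higher and 11.3% lower, with Meis2 at 10.1 against 62.5 CPM (-2.17 ± 0.23, limma, adjusted p = 3.42e-08). In Agtr2-led cells 3 were higher and 4 lower, where 10.5% of all genes were called higher and 8.59% lower, with Aldh1a2, a retinoic acid-making enzyme, at 9.72 against 0.191 CPM (1.38 ± 0.28, limma, adjusted p = 0.000786).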

How the data were processed

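Single-cell RNA was measured in 1 sorted sample and 3 whole lungs. Per the file values, the authors deposited each cell's UMI counts scaled to the sample's median total, a per-gene signal, from which 100% of counts came out whole at a tolerance of 0.01. The submitters' processing notes name Cell Ranger 1.3.1 and Seurat 3.0.0; the strand of counting and the genome build are not given in the sources used here. Depth came to 41038008 UMIs for sorted cells and 23996253, 20347458 and 21358915 for lungs 1, 2 and 3, and 59 barcodes occurred in more than 1 library. Low depth limits members under about 20 CPM, and Poisson intervals cover counting error only.

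From these, CPM was computed per cell. Scanpy 1.11.5 scored doublets, and 30, 36, 34 and 26 were removed, which left 3055 sorted and 7383 lung cells. Clusters (Leiden, resolution 1) used 2000 variable genes of 10331 clustering genes; the 10343 others, with every Hox gene, were tested. A second set of clusters was made at resolution 2. No cluster of the lungs was smooth muscle alone at resolution 1, so the Agtr2-led cluster took that place in the planned comparisons. Mean CPM per class and lung was tested as log2(CPM + 5) by limma 3.58.1 (R 4.3.3), with genes of a mean of at least 2 CPM, the lung as a block, which pairs classes of the same lung, and Benjamini-Hochberg adjustment over all genes. Fold changes are on that scale and understate low genes. Correlations of same-lung deviations were 0.133 to 0.247 across compartments, 0.0382 to 0.0877 across mesenchymal classes and 0.111 to 0.173 in alveolar cells. For the Ednrb-led against matrix fibroblast comparison, counts drawn with known changes were tested too: 88.5% of 2-fold changes were found at 20 CPM or more and 12.8% under 20 CPM. edgeR 4.0.16 on the recovered UMI counts, of which 100% were whole, was an alternative and called from 1264 to 4754 genes per comparison.

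Members were given lung by lung where they reached 20 CPM in a class. Some genes of the member and partner lists are not reported by name here; counts and sums include them. The members, the partner list and the tests were chosen with earlier results of these data known. GENCODE and RefSeq on GRCm38 gave exon overlaps and promoters.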

Additional observations from a re-analysis of the deposited data

How the results depend on the processing

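Each comparison was repeated under 14 other settings. Of the values of named members, 1344 kept their direction and side of the threshold, 29 lost a call, 10 gained one and 0 reversed. Dropping the lung as a replicate block, which removes the pairing, left the number of Hox genes called as it was in all 11 comparisons, and between mesenchyme and epithelium it called 3783 genes in place of 3911. With a minimum mean of 10 CPM, 5 Hox genes remained tested across compartments, and the calls became 5 for mesenchyme against epithelium, 4 against endothelium and 5 against immune cells, and 5 each for endothelium against epithelium and immune cells; fewer members were tested. With no filter, epithelium against immune cells had 2.

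Leaving out 1 lung at a time gave from 0 to 1 Hox calls for epithelium against immune cells and from 3 to 4 for Ednrb-led cells against matrix fibroblasts. It gave from 1 to 2 for Agtr2-led cells against matrix fibroblasts and from 3 to 5 for Ednrb-led against Agtr2-led cells. Over all genes these fits called from 4234 to 4277, from 935 to 1002, from 745 to 818 and from 916 to 957 genes, in that order. Hox genes per cell depend on depth by construction: at 5000 UMIs they were 1.88 in mesenchyme, 0.998 in endothelium, 0.0556 in epithelium and 0.0714 in immune cells, and without thinning 2.56, 1.32, 0.138 and 0.105. With the 4 samples clustered together, the sort's Hox sum was 1031 CPM in Ednrb-led cells, 806.1 in smooth muscle-like and 735.5 in Agtr2-led cells, where cells had changed class, and no matrix fibroblast value could be had. In the sort's 1 myofibroblast-like cluster alone, a setting chosen after seeing the data, the Ednrb-led sum was 1021.6 CPM.

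Main limits are 3 lungs without stated litters, 1 sorted sample, a sort and lungs that differ in stage, genotype and library, and low depth for the 12 members under 20 UMIs.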

Other observations

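The 32 mesothelium-like cells, which came to 15, 1 and 16 per lung and entered no comparison, held more Hoxc4 than the other lung classes. Hoxc4, a HoxC gene of group 4, was at 36.5 CPM (5 UMIs) in lung 1 and 56.7 CPM (4 UMIs) in lung 3, where its highest mean in any other lung class was 1.43 CPM. The same cells held Hoxa5 at 197.1 and 95.4 CPM, Hoxb2 at 41.1 and 67.6 CPM and Hotairm1 at 148.3 and 106.1 CPM, while Hoxb5 and Hoxb6 had 0 UMIs over the cluster, which allows up to 13.1 CPM each (95% Poisson limit). In the sort, Hoxc4 was at 16.7 CPM (5 UMIs) in adventitial fibroblast-like cells and at 3.60 CPM or less in the other mesenchymal classes. These are values of few cells with no test.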
